A study of Mus musculus with 39 samples.

Results

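Molecular chaperones, the heat shock proteins and the DnaJ proteins that feed them substrates, were followed in the quadriceps muscle and epididymal fat of mice that had been fasted or fed after different diets in youth. The members were all protein-coding genes whose symbol starts with Hspa, Hspb, Hsp90, Hspd, Hspe, Hsph, Dnaja, Dnajb or Dnajc, with Cryab, Bag3 and Hsf1 added. This gave 76 members among the 45232 gene identifiers in the files, and 10 further matches that are not protein coding were left out. By family they were 8 small heat shock proteins, 13 members of the HSP70 family, 3 of HSP90, the 2 parts of the mitochondrial chaperonin, 4 DnaJ proteins of class A, 13 of class B and 28 of class C, 2 regulators (Bag3 and Hsf1), and 3 genes that share only the Hspb letters (Hspb11, Hspbp1 and Hspbap1). Each member had reads in some library.

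All mice were male C57BL/6J (C57BL/6 in the sample labels), 22 weeks old at collection. They ate chow until week 6, then for the single week to week 7 either a high-fat diet with 45% of its calories from fat (HFD) or a control diet with 10% (CD), then chow until week 10, and from there on every group ate the same HFD. For the last 16 h the mice were fasted or fed. The quadriceps groups were HFD fasted (6 libraries), HFD fed (4), CD fasted (6) and CD fed (4), and the groups labelled epididymal white adipose tissue (eWAT) held 5, 4, 6 and 4 libraries in the same order. HFD and CD thus name the diet in youth, and fed controls of both diets were on HFD as adults. The labels do not say whether the libraries came from separate animals, and p-values describe only how these libraries spread.

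Chaperones bind unfolded stretches of proteins and keep them from clumping until they fold or are degraded. HSP70 proteins do this in cycles of ATP use that DnaJ proteins start and nucleotide exchange factors end, HSP90 proteins finish the folding of kinases and receptors, and small heat shock proteins hold clients without ATP. Striated muscle is rich in small heat shock proteins, which protect the sarcomere and its Z-discs, and with Bag3 pass damaged filament proteins to autophagy. The transcription factor Hsf1 drives many of these genes in stressed cells by binding repeats of the unit GAA and its inverse TTC in their promoters.

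To show what such an element looks like, stretches of the promoters of some members are printed here, from RefSeq on build GRCm38.p6. They run 5′ to 3′ on the strand of the gene, with the matched elements in capitals, 2 of them overlapping in Hspe1. The stretches of Dnajb6, Hspe1 and Dnaja1 overlap annotated exons. Hspe1 and Hspb1 did not pass the main test of fasting given below. The stretch of Dnajb6 lies at chr5:29735844-29735872 (+ strand) and Hspe1 at chr1:55088051-55088079 (+ strand, a start shared with Hspd1 on the other strand). Hspa1a lies at chr17:34972229-34972284 (− strand), Hspa1b at chr17:34959311-34959366 (− strand), Dnaja1 at chr4:40722333-40722362 (+ strand), Hspb1 at chr5:135887778-135887833 (+ strand) and Hspb3 at chr13:113663869-113663924 (− strand).
Dnajb6: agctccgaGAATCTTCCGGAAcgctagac
Hspe1: acggtccgTTCTAGAACCTTCCGGAAggc
Hspa1a: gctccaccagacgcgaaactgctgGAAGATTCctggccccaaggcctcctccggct
Hspa1b: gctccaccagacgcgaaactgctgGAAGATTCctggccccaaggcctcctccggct
Dnaja1: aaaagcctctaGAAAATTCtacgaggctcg
Hspb1: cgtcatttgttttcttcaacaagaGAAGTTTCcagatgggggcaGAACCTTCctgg
Hspb3: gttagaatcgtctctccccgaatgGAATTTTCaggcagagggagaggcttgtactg

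The search covered 250 bases before to 50 bases after each gene's start, on both strands, in the 60 members with a promoter in the RefSeq table. An element of 3 units (GAANNTTCNNGAA or TTCNNGAANNTTC) was present in 4 of 60 members (6.67%), Dnajb6, Hspd1, Hspe1 and Hsph1, against 0.662% of 27025 promoters. An element of 2 units (GAANNTTC or TTCNNGAA), which each 3-unit element contains, was present in 17 of 60 members (28.3%) and in 17.0% of all promoters. Hspa1a and Hspa1b carried the same stretch, and their windows were identical at 296 of 300 positions. These matches describe the letters only.

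Between 6199586 and 14993394 reads were counted per library. Quadriceps libraries carried 135586 to 214936 CPM of fast fibre markers (CPM, the share of counted reads scaled to a common total; marker sums use plain library sizes), against 3.57 to 1529 CPM in libraries labelled eWAT, and at most 1.69 CPM of epididymis markers, 8 of 16 of which were at 0. Libraries labelled eWAT were mixed: 13 of 19 held over 1000 CPM of epididymis transcripts, from the duct that stores sperm next to this fat depot, and HFD fasted 1 and CD fed 1 also held over 1000 CPM of testis germ cell markers. The other 6 were not all plain fat. Among them HFD fasted 4 held 142832 CPM of hepatocyte markers and 802 CPM of core fat markers. CD fasted 1 and 3 held 40060 and 10115 CPM of hepatocyte markers, with 19227 and 23096 CPM of core fat markers. HFD fed 3 was the library with 1529 CPM of fast fibre markers, and the next highest eWAT library, HFD fed 2, held 36.1 CPM. Library titles carry a number, and 4 quadriceps libraries with the numbers 61 to 64, which are HFD fasted 5 and 6 and HFD fed 3 and 4, stood apart from the others of their groups. Results in quadriceps are therefore also given without these 4 libraries.

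Fasting lowered more chaperone transcripts than it raised in quadriceps. Of the 67 members with enough reads to be tested, 19 fell, 4 rose and 44 did not pass adjusted p = 0.05 (edgeR quasi-likelihood test, mean of both juvenile diets, Benjamini-Hochberg adjustment over 12213 genes). Among all tested genes 18.4% fell and 19.2% rose, 37.6% together, against 28.4% and 5.97% of the members, 34.3% together. The median log2 change was −0.11 over the members and −0.02 over all tested genes. In whole muscle, fewer cells of a type and less RNA per cell cannot be told apart. The falls were in the small heat shock proteins (4 of 7 tested), the HSP70 family (6 of 13), HSP90 (2 of 3) and DnaJ classes A (2 of 4), B (2 of 9) and C (3 of 24), and the rises in DnaJ classes A (1) and B (3).

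**Figure D1:**
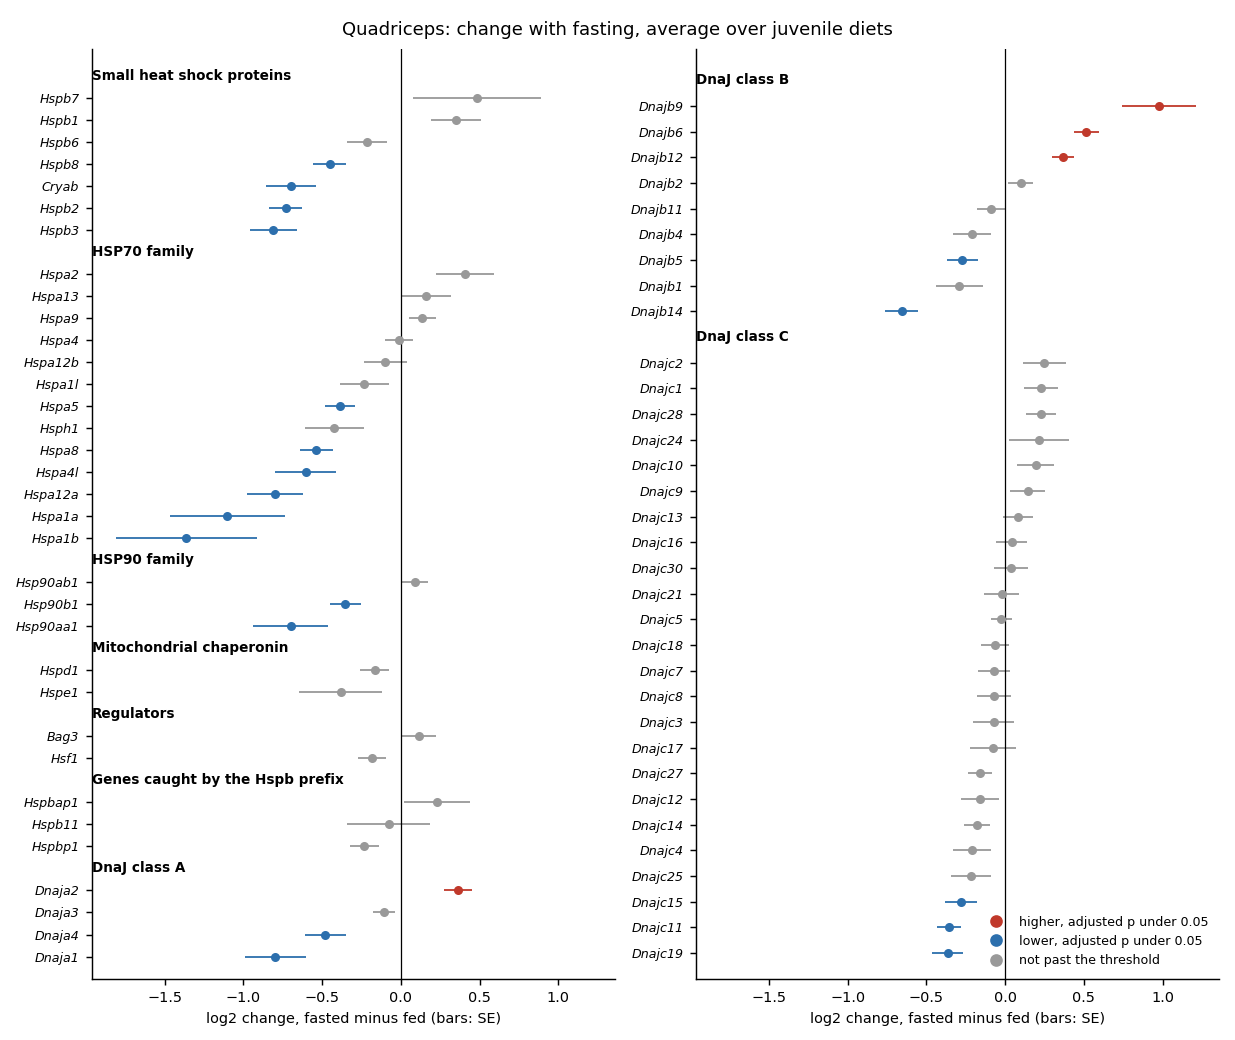
Log2 change of each tested member in quadriceps with fasting (x axis, fasted minus fed, mean of both juvenile diets, edgeR), grouped by family down the page; points are estimates, bars are 1 SE, and coloured points passed adjusted p = 0.05 (red higher, blue lower), grey ones not. Hspa1b lies furthest left at −1.36 and Dnajb9 furthest right at 0.98.

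The small heat shock proteins of muscle fell in part. Hspb2 lay between 23.6 and 40.9 CPM (median 30.7) in the 12 fasted libraries, against 37.2 to 68.6 CPM (median 51.2) in the 8 fed libraries. Hspb2 averaged 33.7 ± 5.74 CPM in HFD fasted and 53.8 ± 13.1 CPM in HFD fed libraries, and 30.5 ± 3.78 CPM in CD fasted and 52.4 ± 8.52 CPM in CD fed libraries (SD, n = 6 fasted and 4 fed libraries per diet, here and in all quadriceps means). All but 2 fasted libraries lay below the lowest fed one, and the fall was 1.66-fold (log2 change −0.73, SE 0.10, adjusted p = 2.36e-06). Hspb2, which binds the myotonic dystrophy kinase, and Hspb3 form a complex made in muscle. Hspb3 lay between 4.80 and 11.5 CPM (median 7.49) in the 12 fasted libraries, against 8.82 to 19.8 CPM (median 11.1) in the 8 fed libraries. Hspb3 averaged 8.40 ± 1.55 CPM in HFD fasted and 14.0 ± 5.45 CPM in HFD fed libraries, and 6.17 ± 1.24 CPM in CD fasted and 11.6 ± 3.03 CPM in CD fed libraries. Of the 12 fasted libraries 11 lay below every fed library, and the change was −0.81 (SE 0.15, adjusted p = 8.16e-05). HFD fasted 6, one of the libraries with the title numbers 61 to 64, was the one inside the fed range at 11.5 CPM.

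Cryab lay between 244 and 766 CPM (median 374) in the 12 fasted libraries, against 531 to 763 CPM (median 706) in the 8 fed libraries. Cryab, or αB-crystallin, binds desmin and titin and is among the most abundant chaperones of muscle. Cryab averaged 471 ± 204 CPM in HFD fasted and 698 ± 76.9 CPM in HFD fed libraries, and 359.8 ± 31.3 CPM in CD fasted and 641 ± 101 CPM in CD fed libraries. In 10 fasted libraries Cryab lay below all fed libraries and in 1 it lay above all of them, and the change was −0.70 (SE 0.16, adjusted p = 0.00145). Cryab and Hspb2 lie head to head and their annotated exons share 252 bases, 17.0% of Cryab and 30.2% of Hspb2, so reads there cannot be assigned with the strand setting unknown. Hspb8 lay between 199 and 306 CPM (median 224) in the 12 fasted libraries, against 214 to 411 CPM (median 328) in the 8 fed libraries. Hspb8, the partner of Bag3 in the removal of damaged filament proteins, overlapped more, with 4 fasted libraries below the lowest fed one, and changed by −0.45 (SE 0.11, adjusted p = 0.00125).

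The other small heat shock proteins did not pass the test. Hspb6 averaged 678 ± 202 CPM in HFD fasted and 730.3 ± 170.3 CPM in HFD fed libraries, and 595 ± 57.2 CPM in CD fasted and 742 ± 142 CPM in CD fed libraries, a change of −0.21 (SE 0.13, adjusted p = 0.198). Hspb6 (Hsp20) binds actin-associated proteins. Hspb7 averaged 564 ± 379.7 CPM in HFD fasted and 351 ± 194 CPM in HFD fed libraries, and 423 ± 163 CPM in CD fasted and 347 ± 172 CPM in CD fed libraries. Hspb7, the cardiovascular heat shock protein, changed by 0.49 (SE 0.41, adjusted p = 0.375). Its SE was the largest of the 7 tested small heat shock proteins. Hspb1 averaged 143 ± 52.0 CPM in HFD fasted and 119 ± 24.2 CPM in HFD fed libraries, and 124 ± 16.7 CPM in CD fasted and 91.6 ± 10.5 CPM in CD fed libraries. Hspb1 (Hsp25), which guards actin filaments, changed by 0.35 (SE 0.16, adjusted p = 0.0863); it passed under limma voom, with the offset for GC content and length (0.57), and without HFD fasted 2 or HFD fasted 6. Hspb9, a small heat shock protein of the testis, had no read in the 20 quadriceps libraries, where 3 counts of the 205005512 summed reads would be 0.0146 CPM (counting error only). Over the 7 tested small heat shock proteins the median change was −0.45.

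Hspb7 was read beside the slow fibre markers, a list of 9 transcripts of slow and cardiac-type fibres. Their summed level lay between 36.9 and 1654 CPM (median 311) in fasted and between 37.4 and 2559 CPM (median 681) in fed quadriceps, and 0 of the 9 were called with fasting (median log2 change −1.17). CD fed 1 held 91.7 CPM of Hspb7 and a marker sum of 37.4 CPM, HFD fasted 2 held 139 CPM and 36.9 CPM, and HFD fasted 4 held 1103 CPM and 1654 CPM. The levels did not run together in every library. CD fed 3 had the highest marker sum, 2559 CPM, but no CD fed library held over 464 CPM of Hspb7. With the log2 marker sum as a covariate, an alternative chosen after seeing the data, Hspb7 changed by 0.66 (SE 0.19, adjusted p = 0.00890) and passed, and Cryab changed by −0.68 (SE 0.13, adjusted p = 1.76e-04).

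The constitutive HSP70 of the cytosol and the stress-induced copies all fell. Hspa8 lay between 346 and 485 CPM (median 428) in the 12 fasted libraries, against 463 to 999 CPM (median 551) in the 8 fed libraries. Hspa8 averaged 439.5 ± 34.5 CPM in HFD fasted and 729.5 ± 246 CPM in HFD fed libraries, and 407 ± 42.8 CPM in CD fasted and 517 ± 42.9 CPM in CD fed libraries. Hspa8 (Hsc70), the housekeeping HSP70 that also guides substrates to lysosomes, lay below every fed library in 9 of 12 fasted libraries, a change of −0.54 (SE 0.10, adjusted p = 1.37e-04). Without the libraries numbered 61 to 64 the change was −0.32 (SE 0.09, adjusted p = 0.00657). Hspa1b lay between 0.795 and 7.39 CPM (median 2.38) in the 12 fasted libraries, against 2.35 to 22.5 CPM (median 4.79) in the 8 fed libraries. Hspa1b averaged 3.21 ± 2.34 CPM in HFD fasted and 8.58 ± 9.39 CPM in HFD fed libraries, and 2.24 ± 1.23 CPM in CD fasted and 5.23 ± 2.25 CPM in CD fed libraries. Hspa1a lay between 2.40 and 13.1 CPM (median 6.31) in the 12 fasted libraries, against 6.45 to 28.0 CPM (median 8.92) in the 8 fed libraries. These stress-induced copies of HSP70 overlapped between the states, with 6 fasted libraries below the lowest fed one for each. Hspa1a averaged 6.52 ± 4.01 CPM in HFD fasted and 14.3 ± 9.75 CPM in HFD fed libraries, and 5.48 ± 2.77 CPM in CD fasted and 10.9 ± 5.27 CPM in CD fed libraries. Hspa1b changed by −1.36 (SE 0.45, adjusted p = 0.0239) and Hspa1a by −1.10 (SE 0.36, adjusted p = 0.0248).

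Both calls rest on single libraries. Without CD fed 2 or without HFD fed 3 the adjusted p of Hspa1b was 0.0593 and 0.0919 and that of Hspa1a 0.0727 and 0.0796, and without the libraries numbered 61 to 64 the changes were −0.79 (SE 0.40, adjusted p = 0.151) and −0.87 (SE 0.38, adjusted p = 0.104). The 2 genes are near-identical copies. Reads that aligned to more than 1 place were listed apart and not counted. The levels of both genes may thus be too low, and rest on reads that tell the copies apart.

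Hspa5 lay between 52.3 and 94.5 CPM (median 80.0) in the 12 fasted libraries, against 88.5 to 125 CPM (median 97.3) in the 8 fed libraries. Hspa5 averaged 83.3 ± 5.71 CPM in HFD fasted and 109 ± 18.7 CPM in HFD fed libraries, and 72.5 ± 15.3 CPM in CD fasted and 95.3 ± 5.57 CPM in CD fed libraries. Hspa5 (BiP), the HSP70 of the endoplasmic reticulum, lay below the fed range in 10 of 12 fasted libraries and changed by −0.39 (SE 0.09, adjusted p = 0.00157), with −0.26 (SE 0.10, adjusted p = 0.0531) without the libraries numbered 61 to 64. Hspa12a lay between 2.40 and 6.42 CPM (median 4.21) in the 12 fasted libraries, against 4.63 to 10.6 CPM (median 6.43) in the 8 fed libraries. Hspa12a averaged 3.74 ± 1.16 CPM in HFD fasted and 6.68 ± 1.04 CPM in HFD fed libraries, and 4.45 ± 1.29 CPM in CD fasted and 7.35 ± 3.03 CPM in CD fed libraries. Hspa12a, a distant relative of HSP70, lay below the fed range in 7 of 12 fasted libraries, a change of −0.80 (SE 0.18, adjusted p = 7.62e-04). Hspa4l, an HSP110-type exchange factor, changed by −0.60 (SE 0.19, adjusted p = 0.0150); without CD fed 3 its adjusted p was 0.0792, without HFD fed 3 it was 0.0572, and without the libraries numbered 61 to 64 the change was −0.38 (SE 0.22, adjusted p = 0.192).

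The remaining 7 members of the family did not pass. Hsph1 averaged 55.4 ± 13.5 CPM in HFD fasted and 84.8 ± 40.9 CPM in HFD fed libraries, and 48.7 ± 14.5 CPM in CD fasted and 57.5 ± 6.35 CPM in CD fed libraries. Hsph1, the stress-induced HSP110 that recharges HSP70, changed by −0.42 (SE 0.19, adjusted p = 0.0828). It passed without CD fasted 1, HFD fasted 6, HFD fed 1 or HFD fed 2, each left out alone, and under DESeq2, limma voom and the offset for GC content and length. Hspa2 averaged 7.61 ± 2.71 CPM in HFD fasted and 5.82 ± 1.58 CPM in HFD fed libraries, and 7.16 ± 2.17 CPM in CD fasted and 5.24 ± 1.69 CPM in CD fed libraries, a change of 0.41 (SE 0.18, adjusted p = 0.0805) for this testis-enriched HSP70. Hspa4, Hspa9 (the mitochondrial HSP70), Hspa12b, Hspa13 and Hspa1l changed by −0.01, 0.14, −0.10, 0.16 and −0.23 on the log2 scale. The median over the 13 was −0.39.

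HSP90 was divided by isoform. Hsp90aa1 lay between 8.67 and 23.9 CPM (median 11.3) in the 12 fasted libraries, against 13.9 to 50.03 CPM (median 17.1) in the 8 fed libraries. Hsp90aa1 averaged 14.4 ± 5.83 CPM in HFD fasted and 26.2 ± 17.0 CPM in HFD fed libraries, and 11.8 ± 2.45 CPM in CD fasted and 17.3 ± 3.55 CPM in CD fed libraries. Hsp90aa1, the inducible cytosolic HSP90 needed for myosin folding, lay below the fed range in 8 of 12 fasted libraries and changed by −0.70 (SE 0.24, adjusted p = 0.0280). The call was lost without CD fed 1 (adjusted p = 0.0605), CD fed 3 (0.0562) or HFD fed 3 (0.0714), and without the libraries numbered 61 to 64 the change was −0.46 (SE 0.13, adjusted p = 0.00571). Hsp90ab1 averaged 1118 ± 109 CPM in HFD fasted and 1077 ± 97.5 CPM in HFD fed libraries, and 1144 ± 143 CPM in CD fasted and 1047 ± 86.3 CPM in CD fed libraries, with a change of 0.09 (SE 0.08, adjusted p = 0.407) in this constitutive isoform. Hsp90b1 (GRP94), which folds receptors and integrins in the endoplasmic reticulum, lay below the fed range in 8 of 12 fasted libraries and fell by 0.35 on the log2 scale (SE 0.10, adjusted p = 0.00499). In the mitochondrial chaperonin, Hspd1 (Hsp60) changed by −0.17 (SE 0.09, adjusted p = 0.158) and its lid Hspe1 (Hsp10) by −0.38 (SE 0.26, adjusted p = 0.278), neither past the threshold.

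**Figure D2:**
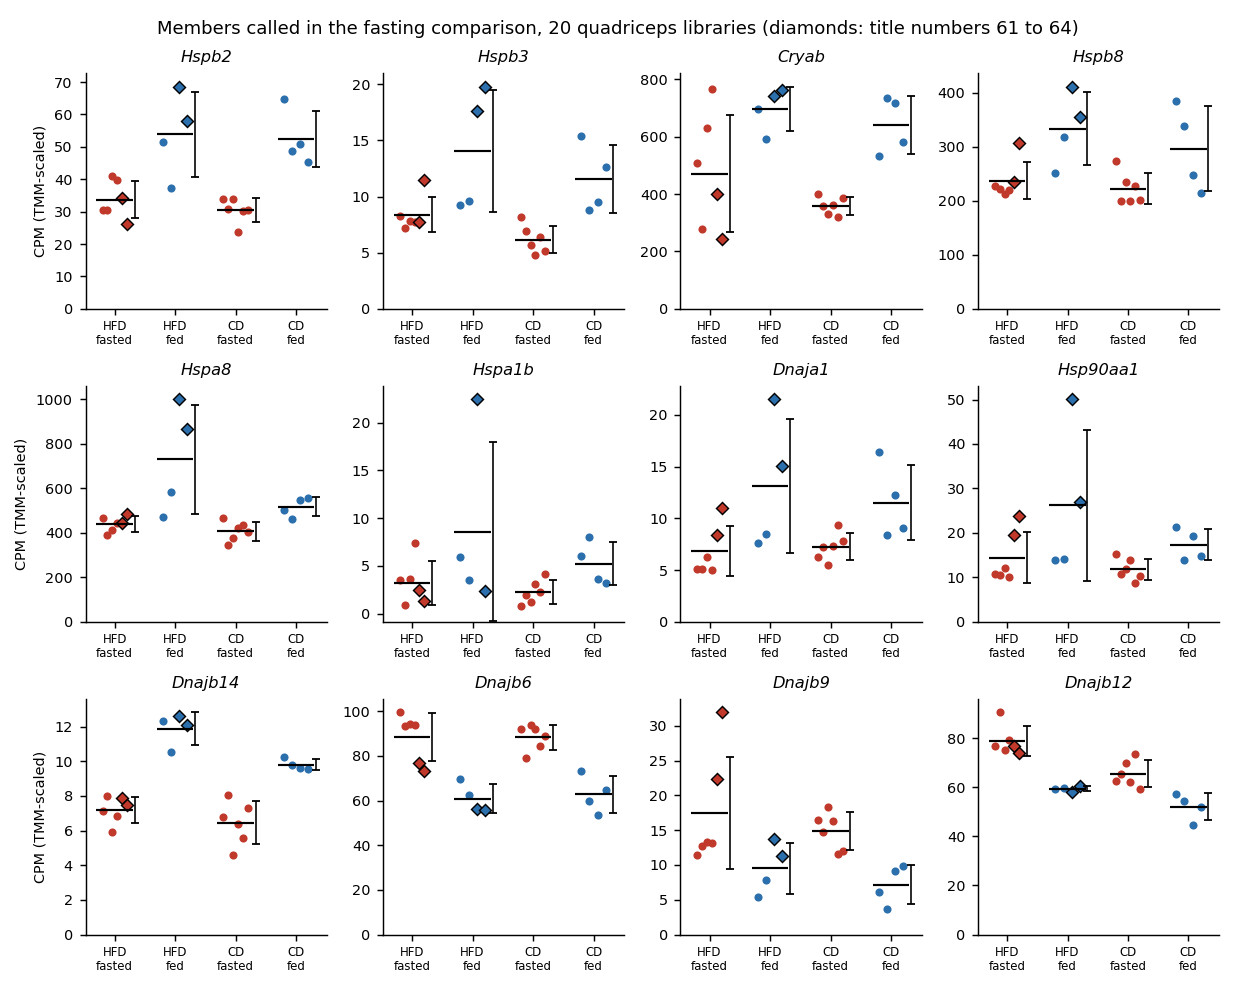
Level of 12 members in each quadriceps library (y axes, CPM on TMM-scaled library sizes, with 0 at or near the foot), by group with fasted left of fed; bars are means and SD, and diamonds mark the libraries with title numbers 61 to 64. All 12 fasted points of Dnajb14 lie below the 8 fed points, and in the other panels fasted and fed points overlap.

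DnaJ proteins moved both ways. Dnajb14 lay between 4.61 and 8.07 CPM (median 6.98) in the 12 fasted libraries, against 9.56 to 12.6 CPM (median 10.4) in the 8 fed libraries. Dnajb14 averaged 7.20 ± 0.752 CPM in HFD fasted and 11.9 ± 0.939 CPM in HFD fed libraries, and 6.45 ± 1.24 CPM in CD fasted and 9.80 ± 0.324 CPM in CD fed libraries. Dnajb14 sits in the membrane of the endoplasmic reticulum and helps to clear misfolded membrane proteins, and it was the one member of 67 in which all fasted libraries lay below all fed libraries, as did 2.6% of tested genes. It changed by −0.66 (SE 0.10, adjusted p = 1.13e-05), or 1.58-fold. No member lay wholly above, which 4.25% of genes did. Dnajb12 lay between 59.2 and 90.5 CPM (median 73.7) in the 12 fasted libraries, against 44.7 to 60.4 CPM (median 57.6) in the 8 fed libraries. Dnajb12 averaged 78.7 ± 6.07 CPM in HFD fasted and 59.4 ± 1.00 CPM in HFD fed libraries, and 65.5 ± 5.398 CPM in CD fasted and 52.1 ± 5.37 CPM in CD fed libraries. Dnajb12, the close relative of Dnajb14 in the same membrane, moved in the opposite direction, above the fed range in 11 of 12 fasted libraries, a change of 0.37 (SE 0.07, adjusted p = 1.58e-04).

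Dnajb6 lay between 73.2 and 99.5 CPM (median 92.0) in the 12 fasted libraries, against 53.4 to 73.3 CPM (median 61.2) in the 8 fed libraries. Dnajb6 averaged 88.5 ± 10.8 CPM in HFD fasted and 60.9 ± 6.48 CPM in HFD fed libraries, and 88.3 ± 5.66 CPM in CD fasted and 62.8 ± 8.35 CPM in CD fed libraries. Dnajb6, a Z-disc-associated chaperone of aggregation-prone proteins whose mutation causes a limb-girdle muscular dystrophy in humans, was above the fed range in 11 of 12 fasted libraries and rose 1.43-fold (log2 change 0.52, SE 0.08, adjusted p = 9.43e-06). Its promoter stretch with the 3-unit element is the first one printed above. Dnajb9 lay between 11.4 and 31.9 CPM (median 14.1) in the 12 fasted libraries, against 3.62 to 13.7 CPM (median 8.48) in the 8 fed libraries. Dnajb9 averaged 17.5 ± 8.10 CPM in HFD fasted and 9.54 ± 3.66 CPM in HFD fed libraries, and 14.9 ± 2.68 CPM in CD fasted and 7.17 ± 2.86 CPM in CD fed libraries. Dnajb9 (ERdj4), a partner of Hspa5 that is made on stress of the endoplasmic reticulum, rose 1.97-fold (log2 change 0.98, SE 0.23, adjusted p = 0.00266), with 6 fasted libraries above every fed library. Dnaja2 lay between 98.7 and 154 CPM (median 108) in the 12 fasted libraries, against 71.0 to 106 CPM (median 85.8) in the 8 fed libraries. Dnaja2 averaged 117 ± 19.4 CPM in HFD fasted and 92.5 ± 15.6 CPM in HFD fed libraries, and 108 ± 8.62 CPM in CD fasted and 82.5 ± 8.26 CPM in CD fed libraries. Dnaja2, a class A partner of Hspa8, had 6 fasted libraries above the fed range and changed by 0.36 (SE 0.09, adjusted p = 0.00183).

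Dnaja1 lay between 4.99 and 10.98 CPM (median 6.73) in the 12 fasted libraries, against 7.61 to 21.5 CPM (median 10.6) in the 8 fed libraries. Dnaja1 averaged 6.81 ± 2.41 CPM in HFD fasted and 13.2 ± 6.49 CPM in HFD fed libraries, and 7.24 ± 1.31 CPM in CD fasted and 11.5 ± 3.66 CPM in CD fed libraries. Dnaja1, the other common class A partner of Hspa8 in the cytosol, fell 1.74-fold (log2 change −0.80, SE 0.19, adjusted p = 0.00218), with 8 of 12 fasted libraries below the fed range. Dnaja4 changed by −0.48 (SE 0.13, adjusted p = 0.00465), and without the libraries numbered 61 to 64 by −0.41 (SE 0.16, adjusted p = 0.0612); 44.0% of its exonic bases are shared with Wdr61. Dnajb5 averaged 182 ± 19.9 CPM in HFD fasted and 232 ± 18.0 CPM in HFD fed libraries, and 204 ± 44.4 CPM in CD fasted and 233 ± 42.4 CPM in CD fed libraries. Dnajb5, a class B member that is abundant in muscle, changed by −0.27 (SE 0.10, adjusted p = 0.0299), and its call was lost on leaving out any one of 8 libraries (adjusted p up to 0.0805) and without the libraries numbered 61 to 64 (adjusted p = 0.0923). Dnajb1 averaged 4.44 ± 0.557 CPM in HFD fasted and 5.30 ± 0.251 CPM in HFD fed libraries, and 5.80 ± 1.52 CPM in CD fasted and 7.20 ± 2.57 CPM in CD fed libraries. Dnajb1 (Hsp40), the stress-induced starter of the HSP70 cycle, did not pass at −0.29 (SE 0.15, adjusted p = 0.126), and passed without CD fed 4.

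In class C, where members share little beyond the J domain, 3 of 24 tested members fell and none rose. Dnajc11 lay between 32.4 and 48.7 CPM (median 37.9) in the 12 fasted libraries, against 43.5 to 54.9 CPM (median 48.8) in the 8 fed libraries. Dnajc11 averaged 38.9 ± 6.04 CPM in HFD fasted and 50.3 ± 3.21 CPM in HFD fed libraries, and 37.5 ± 1.53 CPM in CD fasted and 47.6 ± 2.78 CPM in CD fed libraries. Dnajc11, a mitochondrial protein tied to the organisation of cristae, lay below the fed range in 11 of 12 fasted libraries, a change of −0.36 (SE 0.08, adjusted p = 5.07e-04). Dnajc19 and Dnajc15, which serve the import motor of mitochondria, changed by −0.37 (SE 0.10, adjusted p = 0.00442) and −0.28 (SE 0.10, adjusted p = 0.0322). Dnajc15 lost its call on leaving out any one of 7 libraries (adjusted p up to 0.116), and both lost it without the libraries numbered 61 to 64, at −0.27 and −0.14. Dnajc28 averaged 20.9 ± 1.77 CPM in HFD fasted and 18.2 ± 1.62 CPM in HFD fed libraries, and 19.6 ± 3.84 CPM in CD fasted and 16.4 ± 2.19 CPM in CD fed libraries, a change of 0.23 (SE 0.10, adjusted p = 0.0651). The other 20 changes in the class lay between −0.22 and 0.25, and the median of the 24 was −0.07.

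The regulators did not pass. Hsf1 averaged 45.9 ± 4.81 CPM in HFD fasted and 50.5 ± 7.62 CPM in HFD fed libraries, and 48.0 ± 3.88 CPM in CD fasted and 56.1 ± 12.8 CPM in CD fed libraries, with a change of −0.18 (SE 0.09, adjusted p = 0.113) in the heat shock factor. Bag3 averaged 189 ± 45.7 CPM in HFD fasted and 170.0 ± 25.2 CPM in HFD fed libraries, and 163 ± 14.5 CPM in CD fasted and 154 ± 36.0 CPM in CD fed libraries, with a change of 0.11 (SE 0.11, adjusted p = 0.459) in this nucleotide exchange factor. Hspbp1, an HSP70 exchange factor caught by its symbol, changed by −0.23 (SE 0.09, adjusted p = 0.0531). The 9 members too low to test in quadriceps were Dnajb3, Dnajb7, Dnajb8, Dnajb13, Dnajc5b, Dnajc5g, Dnajc6, Dnajc22 and Hspb9.

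Per kilobase of exon, the mean over all quadriceps libraries was highest for Hsp90ab1 (368 CPM per kb), Cryab (349.6), Hspb6 (294), Hspb7 (157), Hspb8 (135), Hspb1 (119) and Hspa8 (117). The 4 members that rose with fasting were lower on this scale, with Dnaja2 at 34.4, Dnajb6 at 12.8, Dnajb12 at 19.5 and Dnajb9 at 5.12 CPM per kb.

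The 4 libraries numbered 61 to 64 bear on the size of several falls. They were the highest libraries within both HFD groups for 13 of 67 members (19.4%, against 8.96% of tested genes), among them Dnaja1, Dnaja2, Dnajb9, Hsp90aa1, Hspa9, Hspb8 and Hspe1, and the lowest for 5 (7.46%, against 7.37% of genes), Bag3, Dnajb6, Dnajc4, Hsf1 and Hspa2. Hspe1 held 25.04 and 28.5 CPM in HFD fasted 5 and 6 and 37.4 and 36.5 CPM in HFD fed 3 and 4, against at most 17.7 CPM in the other 16. Their part in the results was not tested beyond leaving them out, which also leaves fewer HFD libraries to support a call. Without them 16 of 67 members were called with fasting (23.9%, against 30.9% of 12555 genes), 5 higher (7.46%, against 16.3%) and 11 lower (16.4%, against 14.6%), so the share that fell was then near that of all genes. Hspb1 was added at 0.54 (SE 0.14, adjusted p = 0.00397), and Dnaja4, Dnajb5, Dnajc15, Dnajc19, Hspa1a, Hspa1b, Hspa4l and Hspa5 were lost. The falls of Hspb2 (−0.55, SE 0.11, adjusted p = 1.88e-04), Hspb3 (−0.58, SE 0.14, adjusted p = 0.00229) and Cryab (−0.53, SE 0.16, adjusted p = 0.0176) passed in that fit, as did the rises of Dnajb6 (0.51), Dnajb12 (0.38), Dnaja2 (0.41) and Dnajb9 (1.00).

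**Figure D3:**
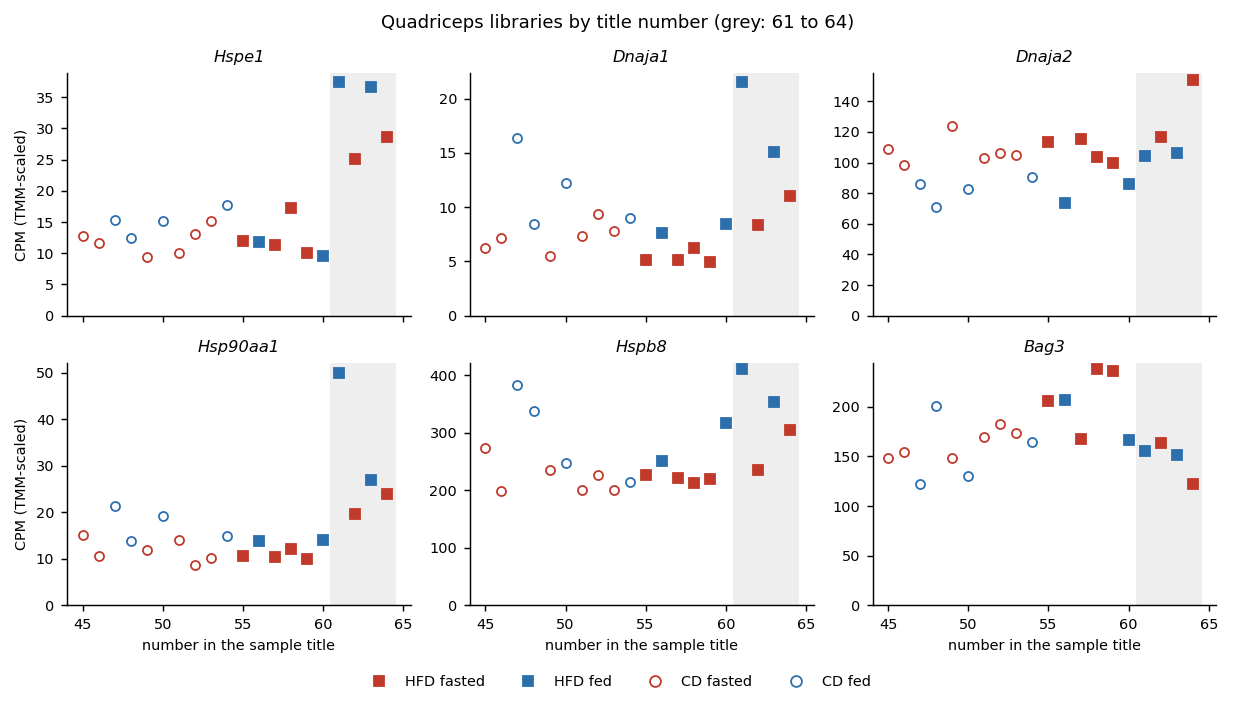
Level of 6 members in each quadriceps library (y axes, CPM on TMM-scaled library sizes) against the number in its title (x axis, 45 to 64), with red for fasted and blue for fed libraries, filled squares for juvenile HFD and open circles for juvenile CD, and grey shading over 61 to 64. For Hspe1, Dnaja1, Dnaja2, Hsp90aa1 and Hspb8 the libraries at 61 to 64 are the highest of both HFD groups, and for Bag3 they are the lowest.

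The study asked whether the juvenile diet changed the response to fasting. After juvenile HFD 14 of 67 members were called with fasting (20.9%, against 21.4% of tested genes, 11.7% higher and 9.7% lower): Dnajb6 and Dnajb12 rose, and Hspa8, Dnajb14, Hspb2, Dnajc19, Hspb3, Dnajc11, Hspa12a, Dnaja1, Hspb8, Hspa5, Dnajc14 and Hspa4l fell. After juvenile CD 14 of 67 were called (20.9%, against 22.4% of genes, 12% higher and 10.4% lower): Dnajb6, Dnajb12, Dnaja2 and Dnajb9 rose, and Hspb2, Hspb3, Dnajb14, Cryab, Dnaja4, Dnajc11, Hsp90b1, Hspa5, Hspa12a and Hspb8 fell. Without the libraries numbered 61 to 64 the count after HFD was 5 (7.46%, against 11.5% of genes), 4 higher (5.97%, against 6.51%) and 1 lower (1.49%, against 4.95%), with Dnajb14 at −0.71, Dnajb6 at 0.53 and Dnajb12 at 0.43 still called. That fit kept only HFD fed 1 and 2 and HFD fasted 1 to 4, and fewer libraries can by themselves lower the count.

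Hspa8 had the smallest p for a difference between the diets in the response to fasting. It changed by −0.73 (SE 0.15, adjusted p = 4.69e-04) after HFD and by −0.34 (SE 0.15, adjusted p = 0.0953) after CD. Its levels were 469, 583, 999 and 867 CPM in HFD fed libraries, against 500.3, 463, 548 and 554 CPM in CD fed libraries. The difference of the 2 responses was −0.39 (SE 0.21, adjusted p = 1.000) and did not pass. In this test of the interaction 0 of 67 members and 0% of genes were called by edgeR, 0 members had an unadjusted p under 0.05, and 0 were called by DESeq2 or limma voom. After Hspa8 the smallest p were those of Dnajc25 (−0.48, SE 0.26) and Dnajc14 (−0.27, SE 0.17).

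The juvenile diet itself left no called member in quadriceps. Over both feeding states 0 of 67 members were called between HFD and CD by edgeR (0.0246% of genes, 0.00819% higher and 0.0164% lower), 10 had an unadjusted p under 0.05, and DESeq2 and limma voom called 0. The smallest p were those of Dnajb12 (0.23, SE 0.07, adjusted p = 0.376), Hspa8 (0.30, SE 0.10, adjusted p = 0.438) and Dnajb1 (−0.42, SE 0.15, adjusted p = 0.451), HFD minus CD. Dnajb12 was 78.7 and 59.4 CPM on average in HFD fasted and HFD fed libraries and 65.5 and 52.1 CPM in CD fasted and CD fed libraries. Title numbers run from 45 to 54 for CD and from 55 to 64 for HFD, so diet and order cannot be told apart.

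Genes that work with the chaperones were read in the same test of fasting in quadriceps, in which 19.2% of all tested genes rose and 18.4% fell. The lists below are small, so a count near these shares sets no list apart from other genes. Of 30 cochaperones of HSP70 and HSP90, 4 rose and 9 fell (median −0.09). Fkbp5, an HSP90-bound immunophilin of the glucocorticoid receptor, changed by 1.84 (SE 0.12, adjusted p = 7.77e-13), Ttc4 by −0.50 (SE 0.09, adjusted p = 3.95e-05) and Bag2, an exchange factor, by −0.47 (SE 0.10, adjusted p = 3.91e-04). Of 20 genes of the unfolded protein response and the folding of the endoplasmic reticulum, 7 rose and 8 fell (median −0.17), with the sensor Ern1 (IRE1α) at 0.94 (SE 0.09, adjusted p = 4.33e-09), the transcription factor Ddit3 (CHOP) at −1.30 (SE 0.18, adjusted p = 1.07e-06) and Edem1, which sends misfolded glycoproteins to degradation, at 1.31 (SE 0.19, adjusted p = 4.06e-06). Both of these lists thus held genes called in each direction.

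Among the other heat shock factors, Hsf2 rose (0.71, SE 0.17, adjusted p = 0.00198), the negative regulator Hsbp1 fell (−0.27, SE 0.10, adjusted p = 0.0341) and Hsf4 did not pass (0.11, SE 0.13, adjusted p = 0.543), of 3 tested. In the cytosolic chaperonin TRiC and its helper prefoldin, 2 of 13 tested genes fell and 0 rose (median −0.04), Pfdn1 (−0.35, SE 0.10, adjusted p = 0.00650) and Cct5 (−0.23, SE 0.08, adjusted p = 0.0296), and Cct2 did not pass (0.14, SE 0.07, adjusted p = 0.115). Of 10 Z-disc genes and clients of Bag3, 2 rose and 4 fell (median −0.04): Sqstm1 (p62), the autophagy receptor, was at 0.90 (SE 0.08, adjusted p = 6.87e-10), Flna, a client of Bag3, at −0.83 (SE 0.10, adjusted p = 1.59e-07) and Synpo2, which joins Bag3 to autophagy, at −0.73 (SE 0.12, adjusted p = 2.43e-05).

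Marker lists of cell types, fibres included, were read in the same test in quadriceps, where 19.2% of all genes rose and 18.4% fell. Smooth muscle markers fell in 5 of 7 tested genes, with summed levels of 2562 to 3976 CPM in fasted and 3119 to 3881 CPM in fed libraries and Smtn at −1.18 (SE 0.09, adjusted p = 7.32e-12), Acta2 at −0.95 (SE 0.12, adjusted p = 4.04e-07) and Myl9 at −0.75 (SE 0.11, adjusted p = 1.99e-06). The summed list averaged 3276 CPM in quadriceps, against 603 CPM in libraries labelled eWAT. Which cells of the muscle carried it was not tested. Endothelial markers fell in 2 of 8, with Kdr at −0.83 (SE 0.16, adjusted p = 3.41e-04) and Egfl7 at −0.43 (SE 0.12, adjusted p = 0.00599), and Emcn did not pass (−0.40, SE 0.19, adjusted p = 0.110). Macrophage markers were called in 0 of 10 (smallest p for Mrc1, C1qa and C1qc, at −0.43, −0.49 and −0.48), and fast fibre markers fell in 3 of 10, with Tnnc2 at −0.42 (SE 0.12, adjusted p = 0.00713), Mylpf at −0.39 (SE 0.12, adjusted p = 0.0137) and Pvalb at −0.31 (SE 0.13, adjusted p = 0.0494). Slow fibre markers Casq2, Atp2a2 and Tnnc1 were at −1.10, −0.81 and −1.36, none past the threshold.

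Adipocyte markers rose in 4 of 10 genes, with Lipe at 1.44 (SE 0.24, adjusted p = 1.09e-04), Fabp4 at 0.81 (SE 0.21, adjusted p = 0.00473) and Pparg at 0.93 (SE 0.30, adjusted p = 0.0151), and 0 of 4 core fat markers were called, with Cfd, Adipoq and Plin1 at 1.88, 1.86 and 1.04. Immediate early genes rose in 5 and fell in 2 of 11, with Ier3 at 1.14 (SE 0.16, adjusted p = 1.20e-06), Junb at 1.34 (SE 0.20, adjusted p = 1.28e-05) and Btg2 at 1.24 (SE 0.20, adjusted p = 4.56e-05). Of 5 tested hepatocyte markers 1 rose, Cyp2e1 (2.28, SE 0.76, adjusted p = 0.0253), and 3 fell, among them Ahsg (−4.42, SE 1.49, adjusted p = 0.0282) and Alb (−3.64, SE 1.37, adjusted p = 0.0465). Their marker sum was 625 CPM in CD fed 3, and the next highest fed library, HFD fed 2, held 72.0 CPM. The median sum was 9.51 CPM in fed and 26.3 CPM in fasted libraries, so it did not fall with fasting. Of 15 listed testis markers 6 had no read in quadriceps. Only Odf2 of that list had enough reads to be tested, and it rose (1.25, SE 0.13, adjusted p = 9.05e-09). With the fat markers as a covariate 24 members were called with fasting (35.8%, against 34.2% of genes), 6 higher (8.96%, against 18%) and 18 lower (26.9%, against 16.2%), and Hspa1b was not called (adjusted p = 0.0544). The part of these cell types in the changes of the members was not tested.

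Quadriceps and the libraries labelled eWAT differed in the level of most members. Of 75 members tested in all 39 libraries, 39 were higher and 29 lower in quadriceps (52.0% and 38.7%, against 28.1% and 54.9% of 17083 genes, 83% together; median log2 difference 0.29 for members and −0.64 for all genes). The small heat shock proteins led. On a scale shared by all libraries, Hspb3 lay between 6.96 and 29.9 CPM (median 12.7) in quadriceps, against 0 to 0.104 CPM (median 0) in the eWAT libraries. Hspb6 lay between 646 and 1551 CPM (median 956) in quadriceps, against 7.29 to 29.2 CPM (median 10.6) in the eWAT libraries. Cryab lay between 378 and 1170.2 CPM (median 802) in quadriceps, against 3.62 to 92.9 CPM (median 14.1) in the eWAT libraries. The tissues did not overlap in any of these. The log2 differences, quadriceps minus eWAT, were 9.46 (SE 0.33, adjusted p = 5.53e-19) for Hspb3, 6.43 (SE 0.19, adjusted p = 6.79e-25) for Hspb6 and 5.32 (SE 0.28, adjusted p = 5.46e-18) for Cryab. With most eWAT libraries at 0 for Hspb3, the size of its fitted difference depends on the prior count.

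Hspb7 (6.45, SE 0.52), Hspb2 (5.47, SE 0.16), Hspb8 (3.92, SE 0.37) and Hspb1 (3.31, SE 0.18) were higher in quadriceps as well, so 7 of 8 small heat shock proteins were. Dnajb5 lay between 233 and 432 CPM (median 306) in quadriceps, against 3.34 to 16.4 CPM (median 10.6) in the eWAT libraries, a difference of 4.91 (SE 0.14, adjusted p = 6.50e-25). Dnajc27, a DnaJ protein that carries a small GTPase domain, differed by 3.80 (SE 0.29), Dnajc28 by 2.85 (SE 0.20), Hsph1 by 2.88 (SE 0.12), Dnajc21 by 2.29 (SE 0.13), Bag3 by 2.005 (SE 0.14) and Hsf1 by 1.54 (SE 0.08). Hspa1l was called too (2.85, SE 0.58), but 71.9% of its exonic bases are shared with Gm10501.

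Most of the members placed in the endoplasmic reticulum here, but not all, were lower in quadriceps. Hsp90b1 lay between 35.0 and 66.0 CPM (median 46.7) in quadriceps, against 117 to 719.6 CPM (median 434) in the eWAT libraries, a difference of −2.91 (SE 0.18, adjusted p = 5.91e-16). Hspa5 lay between 77.2 and 190.2 CPM (median 133) in quadriceps, against 141 to 1083 CPM (median 768) in the eWAT libraries, a difference of −2.27 (SE 0.21, adjusted p = 6.89e-12). Their cofactors Dnajc3, which assists Hspa5 and inhibits a kinase of the stress response, and Dnajc10 (ERdj5), which reduces disulfide bonds, differed by −1.93 (SE 0.17, adjusted p = 4.98e-12) and −3.82 (SE 0.45, adjusted p = 2.64e-09). Hspa13 (−1.56, SE 0.16), Dnajb14 (−1.29, SE 0.10), Dnajb11, another cofactor of Hspa5 (−0.75, SE 0.12), and Dnajc1 (−0.46, SE 0.11) were lower as well. Dnajb12 was higher in quadriceps (1.39, SE 0.06), and Dnajb9 did not pass (−0.11, SE 0.18, adjusted p = 0.566). Dnajc10 was far from even among the eWAT libraries: on the scale set within eWAT, the libraries rich in epididymis markers held 292 to 751 CPM in the 13, against 19.97 to 38.9 CPM in the other 6. Without those 13 libraries Dnajc10 differed by 0.05 (SE 0.16, adjusted p = 0.855) and 59 of 75 members were called (78.7%, against 69.8% of genes), 39 higher (52%, against 30.2%) and 20 lower (26.7%, against 39.5%), with Hspa5 at −1.17 and Hsp90b1 at −2.36.

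**Figure D4:**
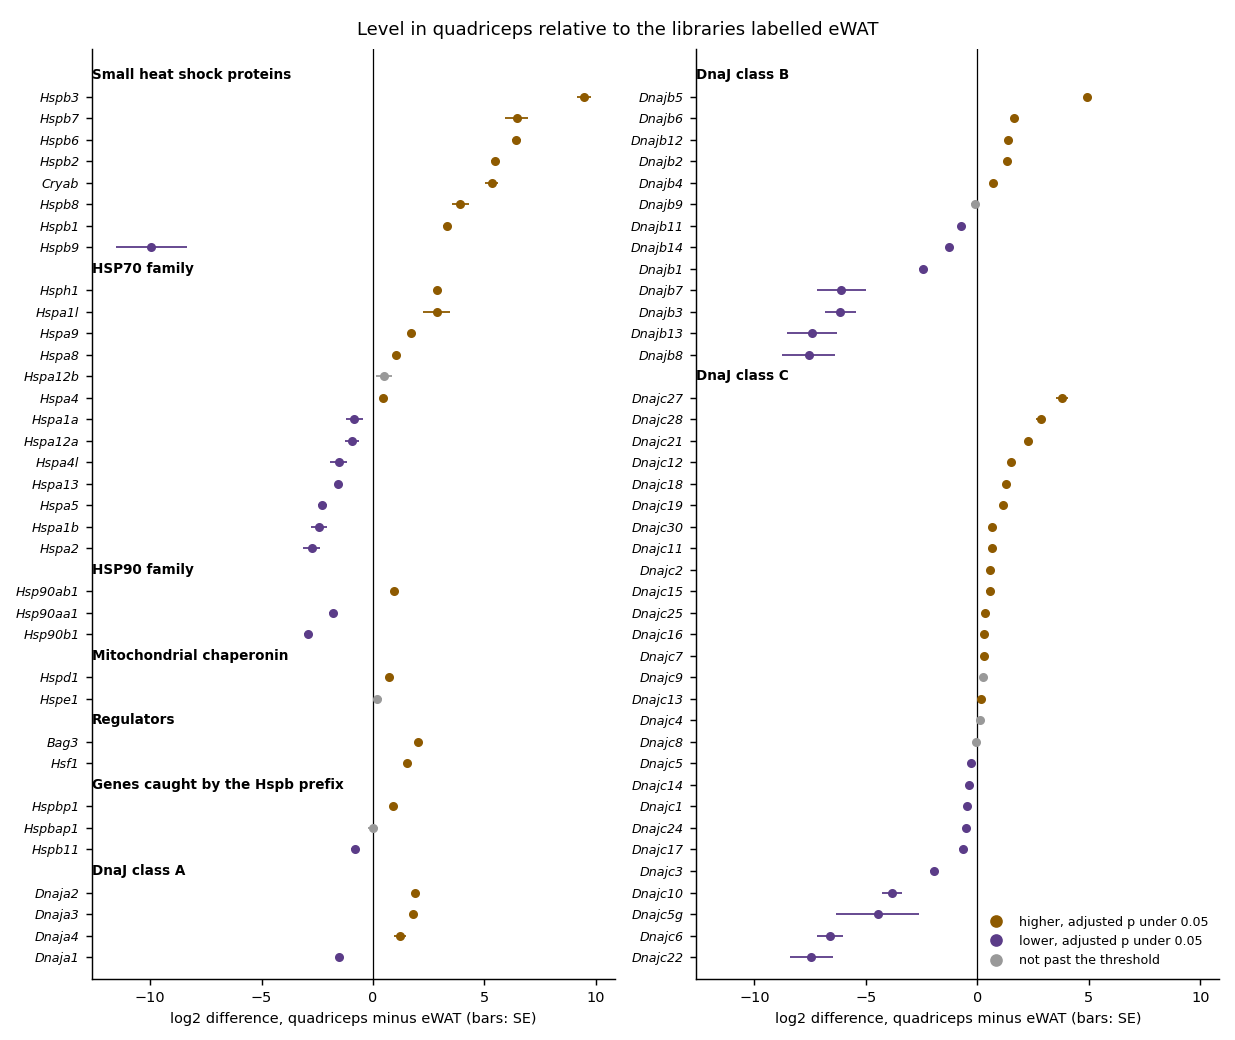
Log2 difference in level of the tested members between quadriceps and libraries labelled eWAT (x axis, quadriceps minus eWAT), grouped by family down the page, with bars of 1 SE and grey points for members that did not pass adjusted p = 0.05. Small heat shock proteins other than Hspb9 lie to the right, between 3.31 for Hspb1 and 9.46 for Hspb3, whose eWAT median was 0.

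Stress-induced members of the cytosol differed in both directions, with Hsph1 and Hspb1 higher in quadriceps, as given above, and others lower. Hspa1b, Dnajb1, Hsp90aa1 and Dnaja1 differed by −2.42 (SE 0.38), −2.42 (SE 0.18), −1.79 (SE 0.19) and −1.51 (SE 0.13). On the scale set within eWAT, Hspa1b lay at 38.4 to 114 CPM in the 13, against 5.97 to 16.8 CPM in the other 6, and Hspa1a at 24.9 to 103 CPM in the 13, against 2.61 to 7.25 CPM in the other 6. On the scale shared by all libraries, the quadriceps median of Hspa1b was 5.18 CPM, against 3.87 to 11.2 CPM in those other 6 eWAT libraries, and that of Hspa1a was 11.8 CPM, against 1.67 to 4.59 CPM. For both genes the 20 quadriceps libraries and these 6 eWAT libraries overlapped. Among the other lower members, Dnajc5, which serves synaptic vesicles, Dnajc14, Dnajc17, Dnajc24, Hspa12a and Hspb11 differed by −0.28, −0.38, −0.64, −0.49, −0.93 and −0.80, and Hspa2 and Hspa4l by −2.76 and −1.55. Others were near absent from quadriceps: Dnajb8, Dnajc22, Dnajc6, Dnajb3, Dnajb7 and Dnajc5g had quadriceps medians of 0, and Dnajb13, a protein of sperm flagella, and Hspb9 were at 0 in all 20 quadriceps libraries, against at most 42.4 and 313 CPM in eWAT on the shared scale. With every quadriceps library at 0, the fitted differences of Dnajb13 and Hspb9 depend on the prior count and are no bounds.

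Libraries labelled eWAT varied more among themselves. The biological coefficient of variation was 0.779, against 0.203 in quadriceps. Of the 13 epididymis-rich libraries 4 were HFD fasted, 2 HFD fed, 3 CD fasted and 4 CD fed. Epididymis marker sums ran from 34.6 to 62933 CPM in HFD fasted, 7.06 to 46472 in HFD fed, 13.1 to 50400 in CD fasted and 16935 to 45097 in CD fed libraries. Adipocyte marker sums ran over 1399 to 10107, 3466 to 62160, 3054 to 62771 and 2352 to 5430 CPM in the same groups. All 13 libraries lay above the other 6 for Dnajb9, Dnajc10, Dnajc17, Hspa13, Hspa1a and Hspa1b and below them for Hspa9, Hspb1 and Hspb8, where 11.2% and 5.63% of genes did so. Hspb8 lay at 6.62 to 47.6 CPM in the 13, against 91.2 to 185 CPM in the other 6.

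Fasting called 0 of 74 members in eWAT by edgeR (0% of 16603 genes), 6 had an unadjusted p under 0.05, DESeq2 called 2 (0.648% of genes) and limma voom 0. The smallest p were those of Dnajc7, a cochaperone that joins HSP70 and HSP90 (0.46, SE 0.12, adjusted p = 0.514), Dnajc13, which acts on endosomes (−0.44, SE 0.13, adjusted p = 0.548), and the nuclear Dnajc8 (0.29, SE 0.11, adjusted p = 0.550). The median change was 0.12 over members and 0.06 over all genes. The juvenile diet called 0 of 74 members (0% of genes; 1 with an unadjusted p under 0.05; 0 by DESeq2 and limma voom), with the smallest p for Hsph1 (0.42, SE 0.14, adjusted p = 1.000), Hspb6 (0.48, SE 0.25, adjusted p = 1.000) and Hspb11, a ciliary transport protein (0.49, SE 0.28, adjusted p = 1.000).

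In eWAT 7 of 74 members were called for the interaction of diet in youth with fasting (9.46%, against 8.41% of genes, 2.6% higher and 5.82% lower). Dnajb3, Hspa1l, Dnajb13 and Hspa4l were higher, at 7.59 (SE 1.88, adjusted p = 0.0367), 10.07 (SE 2.61, adjusted p = 0.0373), 6.95 (SE 1.996, adjusted p = 0.0436) and 5.16 (SE 1.52, adjusted p = 0.0463). Hspa12b, Cryab and Hspa12a were lower, at −6.00 (SE 1.45, adjusted p = 0.0366), −3.33 (SE 0.88, adjusted p = 0.0373) and −4.41 (SE 1.22, adjusted p = 0.0404). A positive value means that fasted minus fed was higher after HFD than after CD. All 7 calls were lost without a filter on low counts, under limma voom, with the epididymis markers as a covariate, among the epididymis-rich libraries alone, and without the libraries rich in testis markers. The count was 0 on leaving out any one of CD fasted 1, 2 and 3, CD fed 1, 2, 3 and 4, HFD fasted 1 and HFD fed 2 and 3, was 4 (4.72% of genes) without CD fasted 4 and 16 (17.6% of genes) without HFD fasted 4.

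The 4 higher members followed 2 libraries. Hspa1l lay at 609.5, 4.03, 5.56, 8.05 and 4.16 CPM in HFD fasted, 2.55, 1.91, 0.551 and 2.03 CPM in HFD fed, 1.203, 0.157, 0.392, 1.44, 6.07 and 6.29 CPM in CD fasted and 142, 4.49, 3.50 and 1.40 CPM in CD fed libraries. HFD fasted 1 and CD fed 1, the first value of those groups, stand far above the rest, and they were the highest and second highest eWAT libraries for 14 of 74 tested members (18.9%, against 12.2% of genes). Hspa2, a spermatocyte HSP70, lay at 1407 CPM in HFD fasted 1 and 468 CPM in CD fed 1, against 7.92 to 77.3 CPM in the other 17. Hspa4l lay at 478 CPM in HFD fasted 1 and 114 CPM in CD fed 1, against 6.08 to 18.5 CPM in the other 17. Dnajb13 lay at 70.6 CPM in HFD fasted 1 and 26.3 CPM in CD fed 1, against 0.239 to 7.39 CPM in the other 17, and Hspb9 at 521 CPM in HFD fasted 1 and 123 CPM in CD fed 1, against 0 to 22.7 CPM in the other 17. Testis marker sums in eWAT ran from 276 to 18041 CPM in HFD fasted, 46.5 to 392.02 in HFD fed, 48.6 to 627 in CD fasted and 288 to 4344 in CD fed libraries, with all 15 markers detected in each group. Without these 2 libraries Hspa1l was at 1.92, Hspa4l at 0.48, Dnajb3 at 2.23 and Dnajb13 at 1.26, none of them called.

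The 3 lower members varied widely among the libraries without many epididymis transcripts. Cryab held 11.98, 10.3, 24.6, 5.65 and 16.4 CPM in HFD fasted, 30.3, 147, 138 and 29.98 CPM in HFD fed, 19.6, 83.9, 61.7, 23.6, 11.7 and 16.4 CPM in CD fasted and 21.7, 26.5, 17.8 and 24.2 CPM in CD fed libraries. The groups overlap. The 13 epididymis-rich libraries reached at most 30.3 CPM, and each higher value came from one of the other 6, as did the lowest, 5.65 CPM in HFD fasted 4. Hspa12b, a relative of HSP70 in endothelium, lay at 3.72 to 58.4 CPM in the 13, against 3.48 to 219 CPM in the other 6, and Hspa12a at 4.40 to 23.3 CPM in the 13, against 2.83 to 216 CPM in the other 6. Among the 13 epididymis-rich libraries alone the interaction was −0.53 (SE 0.44, adjusted p = 0.683) for Cryab, −1.11 (SE 1.09, adjusted p = 0.733) for Hspa12b and −0.26 (SE 0.92, adjusted p = 0.942) for Hspa12a. Dnajc22 was highest in HFD fasted 4 (80.5 CPM) and CD fasted 1 (20.7 CPM), both among the other 6. These libraries also held the highest hepatocyte marker sums, 142832 CPM in HFD fasted 4 and 40060 CPM in CD fasted 1.

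**Figure D5:**
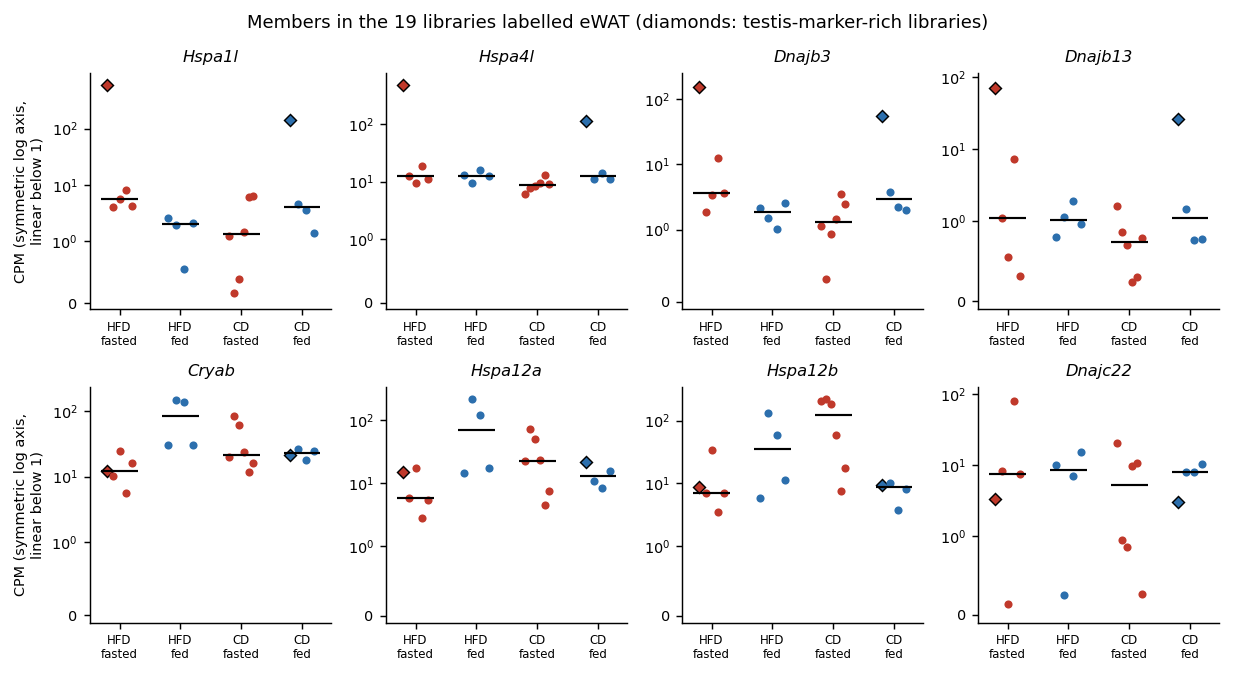
Level of selected members in each library labelled eWAT (y axes, CPM on TMM-scaled library sizes, linear near 0 and log10 above), by group with fasted left of fed; bars are medians, and diamonds mark HFD fasted 1 and CD fed 1, the libraries rich in testis markers. Hspa1l reaches 610 and 142 CPM in those 2 libraries and at most 8.05 CPM in the other 17.

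The response to fasting differed between the tissues for 2 of 75 members (2.67%, against 2.73% of genes, 1.79% higher and 0.942% lower), both lower in quadriceps. Dnajb14 fell in quadriceps as above, against 0.20 (SE 0.18, adjusted p = 0.843) in eWAT, and the difference, quadriceps minus eWAT, was −0.89 (SE 0.20, adjusted p = 0.00762). Its eWAT levels were 100.3, 41.7, 53.0, 73.5 and 43.1 CPM in HFD fasted, 44.6, 55.2, 50.1 and 48.0 CPM in HFD fed, 74.9, 41.3, 41.8, 40.0, 41.9 and 41.7 CPM in CD fasted and 56.9, 35.4, 44.8 and 42.4 CPM in CD fed libraries, which overlap throughout. With only the epididymis-rich eWAT libraries in the fit the difference was −0.77 (SE 0.21, adjusted p = 0.0243). Dnajc7 differed by −0.57 (SE 0.16, adjusted p = 0.0487), with a change of −0.07 (SE 0.10) in quadriceps and of 0.46 (SE 0.12) in eWAT, and was not called with the epididymis-rich libraries alone (adjusted p = 0.213) or without a filter on low counts (adjusted p = 0.159).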

How the data were processed

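Poly(A) RNA of quadriceps (20 libraries) and of tissue labelled epididymal white adipose (19 libraries) was sequenced on an Ion Torrent Proton. The deposited files hold raw read counts per Ensembl gene, without normalization. TopHat2 2.1.0, Bowtie2 2.2.5, HTSeq 0.6.0 and build GRCm38 are named in the submitters' processing notes; the strand setting and annotation release were not stated in the sources used here. Between 18.4% and 39.9% of the reads listed in a file were counted, and the lines for unassigned reads were left out. Reads carried no molecular identifiers, so the level set by a count of 0 covers counting error only.

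Symbols came from GENCODE M21 (44585 identifiers matched), and promoters from RefSeq for 60 of 76 members. Genes were filtered by filterByExpr and scaled by TMM, and 1 mean per group was fitted by the robust quasi-likelihood test of edgeR 4.0.16 in R 4.3.3, per tissue and, for comparisons of tissues, over all 39 libraries, which then share 1 spread. Changes are fasted minus fed, HFD minus CD or quadriceps minus eWAT on the log2 scale. Tests are two-sided, and p-values were adjusted by Benjamini-Hochberg across the tested genes, with calls at 0.05. Levels are CPM on TMM-scaled library sizes, set within a tissue except where all libraries share a scale. The test was checked on simulated data.

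The members, gene lists and comparisons were chosen with earlier results of these data known. Values in every group are given for the 6 members of smallest p in each direction whose average log2 CPM is 2 or more, plus 16 fixed members; all called members are named, with up to 3 genes of smallest p per other list. Values of further genes that illustrate a library or tissue were chosen after they were seen. The alternatives tried were DESeq2 1.42.0, limma 3.58.1 (voom with quality weights), RLE scaling, dropping the filter on low counts, marker sums as covariates, a term for the style of the library title, an offset for GC content and length, fits without libraries rich in markers of other tissues, and leaving out each library in turn within a tissue. The fits without the libraries numbered 61 to 64, with slow fibre markers as a covariate, without the libraries rich in testis markers alone, and with tissues paired by the order of title numbers were added after the data were seen.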

Additional observations from a re-analysis of the deposited data

Results flagged for a closer look

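Lone values were looked for among the members named for quadriceps and for the eWAT interaction. In 16 of 128 groups of 4 to 6 libraries one library lay far from the others relative to the range of its group. Chance flags about 1 group in 20, but the pooled count cannot be compared with that rate. The 7 eWAT members were chosen by their interaction calls, several of which followed the same lone libraries. In quadriceps, HFD fasted 6 was highest for Dnaja2 (154.2 CPM, next 116.8 CPM) and for Hspb3 (11.49 CPM, next 8.28 CPM), HFD fasted 2 for Dnajb12 (90.5 CPM, next 79.13 CPM), HFD fed 1 for Hspb6 (983.8 CPM, next 674.5 CPM) and CD fasted 1 for Hsph1 (77.62 CPM, next 47.14 CPM). CD fasted 4 was lowest for Hspb2 (23.59 CPM, next 30.34 CPM) and CD fed 1 for Hspb7 (91.69 CPM, next 407.8 CPM).

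In eWAT, both libraries rich in testis markers stood alone in their groups. Dnajb13 was at 70.64 CPM in HFD fasted 1 and 26.28 CPM in CD fed 1, Dnajb3 at 155.9 and 55.99 CPM, Hspa1l at 609.5 and 142.4 CPM, and Hspa4l at 477.9 and 113.6 CPM, in the same order of libraries. Hspa12b was at 34.06 CPM in HFD fasted 3, with 8.672 CPM next in its group.

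The tests of a difference between responses called these members. Between tissues, the fasting response of Dnajb14 differed by −0.8927 and that of Dnajc7 by −0.5705 on the log2 scale, quadriceps minus eWAT. Between diets in eWAT, HFD minus CD, it differed by −3.326 for Cryab, 6.946 for Dnajb13, 7.587 for Dnajb3, −4.407 for Hspa12a, −6.005 for Hspa12b, 10.07 for Hspa1l and 5.159 for Hspa4l, and these 7 calls were lost without single libraries as given above.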

How the results depend on the processing

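The count of members called with fasting in quadriceps lay between 16 and 30 under the alternatives other than leaving out single libraries, and between 17 and 27 when single libraries were left out. After juvenile CD it was 6 with fat markers as a covariate and 7 to 15 with single libraries left out, lowest without CD fed 3 and at 9 without CD fed 2 or CD fasted 5. After juvenile HFD it was 9 without a filter on low counts, 22 under limma voom, 5 without the libraries numbered 61 to 64 and 8 to 15 with single libraries left out, lowest without HFD fed 4. For fasting in eWAT DESeq2 called 2. For the eWAT interaction the count was 0 without a filter on low counts, under limma voom, with the epididymis markers as a covariate, in the epididymis-rich libraries alone, without libraries rich in hepatocyte or testis markers and without those rich in testis markers, and 0 to 16 with single libraries left out. Between tissues, the fasting response differed for 1 member without a filter, 6 by DESeq2 and 10 by limma voom. Where no share of all genes is given, the counts in this section do not tell a shift of the members from a shift in the calls of all genes. The sign turned for Dnajb13 in the eWAT interaction (−0.06104 without libraries rich in hepatocyte or testis markers) and for Dnajc10 between tissues (0.04602 without the epididymis-rich libraries). Beyond what leaving out libraries or genes does by construction, the cause was not tested. Of 236 recomputed counts 206 stayed within 1.5 times of the reported one or, where that was 0, were 0 as well. Every fit with a single library left out gave 0 for fasting in eWAT. The same held for juvenile diet in both tissues and for the quadriceps interaction. Leaving out single libraries was not run for the comparisons of tissues. The labels give no replicate numbers and do not tie libraries to animals, but the titles of the 19 eWAT libraries run through diets and feeding states in the same order as the quadriceps titles that are 19 higher. The correlations of same-order libraries across genes lay between −0.14 and 0.11, over 0.1 in 1 of 19, and 6 of 19 eWAT libraries correlated best, within their group, with that partner. As eWAT libraries of a group differ in epididymis, testis and hepatocyte transcripts, these values cannot decide whether same-order libraries share an animal. With this order as a replicate block, chosen after seeing the data and without HFD fasted 6 of quadriceps, 2 members were called for the fasting response between tissues, Dnajb14 (−0.87) and Dnajc7 (−0.62), and 67 for the level. The 9 members not tested in quadriceps had too few reads there for a test.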
